A study of Homo sapiens with 6 samples.

Results

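The anaphase-promoting complex (APC/C), with its activators and key substrates, was followed in LX2 cells 48 h after knockdown of AURKA. LX2 is an established human stellate cell line kept in culture in the activated, matrix-forming state. The genes were chosen by symbol and comprise 10 of the 58243 Ensembl identifiers in the deposited table: CDC20, FZR1, UBE2C, UBE2S, PTTG1, ESPL1, FBXO5, CDC27, CDC16 and CDC23. All 10 were found as 1 identifier each, and all 10 passed the filter on low counts that left 18775 genes for testing. The siAURKA group held 3 libraries from cells transfected with small interfering RNA against AURKA, given the genotype label AURKA knockdown. The siNC group held 3 libraries from cells transfected with control small interfering RNA, given the genotype label WT. Both groups came from the same line, grown in serum-containing medium, and both were transfected. The labels do not say whether the replicates were separate cultures, so every p-value reflects library-to-library spread alone, possibly technical.

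APC/C is a ubiquitin ligase that marks mitotic proteins for destruction by the proteasome. CDC20 activates it at the metaphase-to-anaphase transition once the spindle checkpoint is satisfied, and FZR1 (CDH1) takes over from late mitosis through G1. Destruction of securin (PTTG1) frees separase (ESPL1) to cut cohesin, the ring that holds sister chromatids together. Aurora A, the kinase encoded by AURKA, is itself an APC/C substrate through FZR1.

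Libraries were checked against their labels before the members were compared. Column totals ran from 33196829 to 53357402 units in siAURKA and from 23366242 to 41764470 units in siNC, where a unit is the deposited estimated count. AURKA was at 49.8, 47.0 and 51.1 CPM (counts scaled to library size, TMM-normalised) in siAURKA replicates 1, 2 and 3, against 136, 128 and 95.02 CPM in siNC. The siAURKA libraries were 2.43-fold lower, with no overlap between the groups (log2 fold change -1.28, SE 0.28, edgeR adjusted p = 0.9999, 0.00198 before adjustment). The exact permutation p for AURKA (log2 CPM, two-sided) was 0.1, the smallest that 3 against 3 libraries allow, and DESeq2 called it at an adjusted p of 0.0314. Stellate cell and myofibroblast markers were uneven. Of the 10 tested, 2 had a log2 fold change above 0 and 8 below, with a median of -0.33, against 48.5% of all genes above 0. VIM lay between 4491 and 9999 CPM and COL1A1 between 1071 and 1879.9 CPM over the 6 libraries, while COL1A2 was at 6.90 to 11.9 CPM in siAURKA and 2.86 to 5.14 CPM in siNC, and ACTA2 at 18.7 to 20.4 CPM in siAURKA and 11.2 to 17.3 CPM in siNC. PDGFRB was at 22.1 to 32.9 CPM in siAURKA and 20.04 to 50.4 CPM in siNC. SPARC was at 331 to 653 CPM in siAURKA and 311 to 1123 CPM in siNC. TIMP1 was at 228 to 658 CPM in siAURKA and 231 to 899 CPM in siNC, and TAGLN at 90.4 to 214 CPM and 87.1 to 326 CPM. GFAP was above 0 in all 6 libraries (0.740 to 2.38 CPM in siAURKA and 1.16 to 5.91 CPM in siNC), DES in 5 of 6 at no more than 0.840 CPM, and LRAT in siNC replicate 2 alone, at 0.0477 CPM. The hepatocyte markers ALB, APOB and TTR were listed at 0 in all 6 libraries. Summed over 8 hepatocyte markers, the level was 19.0 to 35.3 CPM in siAURKA and 16.3 to 46.3 CPM in siNC, and over 6 endothelial markers it was 10.3 to 16.9 CPM in siAURKA and 5.44 to 10.5 CPM in siNC. Over 6 cholangiocyte markers it was 41.6 to 62.7 CPM in siAURKA and 48.8 to 97.9 CPM in siNC. Of these, KRT7 was lower in siAURKA without overlap, as were 2.52% of all tested genes. EPCAM, which did not pass the filter, was at 0.156 to 0.734 CPM in siAURKA and 0 in each siNC library. Over 7 macrophage and leukocyte markers the level was 59.5 to 108 CPM in siAURKA and 50.6 to 127 CPM in siNC. The part of all these markers in the results below was not tested. siNC replicate 2 had the smallest total and the highest count-weighted mean GC content, 53.3%, against 49.2% to 52.2% in the other 5 libraries.

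The proximal promoters place the members in context. RefSeq (GRCh38.p14) gives 12 windows of 300 bases for 9 of the 10 members, and none for UBE2C, which was not searched. The windows run from 250 bases before to 50 after a transcription start. They were searched on both strands for TTTGAA, a form of the cell cycle homology region found in genes of late cell cycle, and for CCAAT, the box bound by NF-Y. TTTGAA (or TTCAAA on the other strand) occurred in 4 of the 12 windows, those of CDC20, ESPL1, FBXO5 and FZR1, against 15.2% of all 35116 RefSeq windows. CCAAT (or ATTGG) occurred in 9 of the 12 windows, covering 8 of the 9 members, against 34.6% of all windows. Both occurred in 3 member windows, against 5.90% of all. The windows of CDC20, ESPL1, PTTG1 and CDC27 are shown because they span an activator, separase, securin and a core subunit, with matches to either motif in capitals. They lie at chr1:43358731-43359030 (plus strand), chr12:53268049-53268348 (plus strand), chr5:160421605-160421904 (plus strand) and chr17:47189246-47189545 (minus strand).
CDC20: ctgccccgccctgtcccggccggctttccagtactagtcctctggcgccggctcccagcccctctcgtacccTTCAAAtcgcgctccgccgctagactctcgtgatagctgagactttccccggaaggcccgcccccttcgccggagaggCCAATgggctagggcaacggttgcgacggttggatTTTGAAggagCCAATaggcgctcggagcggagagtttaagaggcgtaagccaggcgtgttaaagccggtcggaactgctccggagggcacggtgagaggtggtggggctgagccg
ESPL1: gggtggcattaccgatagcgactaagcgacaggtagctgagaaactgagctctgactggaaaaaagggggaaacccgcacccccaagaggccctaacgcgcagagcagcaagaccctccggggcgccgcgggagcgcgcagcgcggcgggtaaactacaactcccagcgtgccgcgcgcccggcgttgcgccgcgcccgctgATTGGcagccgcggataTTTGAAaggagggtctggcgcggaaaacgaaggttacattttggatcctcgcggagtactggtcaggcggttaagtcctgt
PTTG1: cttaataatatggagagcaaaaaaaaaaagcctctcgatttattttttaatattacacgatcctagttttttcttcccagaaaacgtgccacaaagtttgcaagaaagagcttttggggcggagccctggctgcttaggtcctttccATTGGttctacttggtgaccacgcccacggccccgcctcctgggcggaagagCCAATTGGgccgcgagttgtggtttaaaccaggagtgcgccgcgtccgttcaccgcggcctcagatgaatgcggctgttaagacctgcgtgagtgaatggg
CDC27: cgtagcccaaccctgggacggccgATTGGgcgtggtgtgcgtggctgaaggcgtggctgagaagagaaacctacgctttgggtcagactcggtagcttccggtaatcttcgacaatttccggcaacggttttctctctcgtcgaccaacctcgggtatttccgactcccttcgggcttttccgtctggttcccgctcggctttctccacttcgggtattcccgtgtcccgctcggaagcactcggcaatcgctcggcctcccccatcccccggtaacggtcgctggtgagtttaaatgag
In CDC20 the sense TTTGAA began 65 bases before the start, between CCAAT boxes 100 and 55 bases before it. ESPL1 carried TTTGAA 31 bases and ATTGG 48 bases before the start. In PTTG1 no TTTGAA was found in either RefSeq window, and CCAAT and ATTGG overlapped in the run CCAATTGG. CDC27 held 1 ATTGG, 226 bases before the start. A match describes these letters and does not show that a factor binds there.

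No member of the complex passed the test between siAURKA and siNC. edgeR's quasi-likelihood test called 0 of the 10 members at an adjusted p of 0.05, and it called 0% of all 18775 genes. AURKA itself was thus not called either. This fit does not use the replicate number, so its SE includes the spread between replicate numbers. Below an unadjusted p of 0.05 were 0 members and 1.26% of all genes (0.623% higher in siAURKA). DESeq2 called 0 members and 0.091% of the genes it gave an adjusted p, 0.0482% as higher and 0.0428% as lower. With the replicate number as a block, DESeq2 called 0 members and 1.67% of such genes, 0.636% as higher and 1.03% as lower, while limma-voom called 0%. No member had groups that did not overlap, against 5.85% of all genes (3.33% higher and 2.52% lower in siAURKA). Fitted log2 fold changes (siAURKA over siNC) of the members lay between -0.14 and 0.31 with a median of 0.14, against a median of -0.01 over all tested genes. Of the 10, 6 had a log2 fold change above 0, against 48.5% of all genes. Comparing libraries of the same replicate number, 4 members (UBE2C, PTTG1, FBXO5 and CDC27) were higher in siAURKA in 3 of 3 pairs, against 17.9% of all genes, and none was lower in 3 of 3, against 17.6%. In bulk RNA, a different number of mitotic cells and a different amount of transcript per mitotic cell cannot be told apart.

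**Figure D1:**
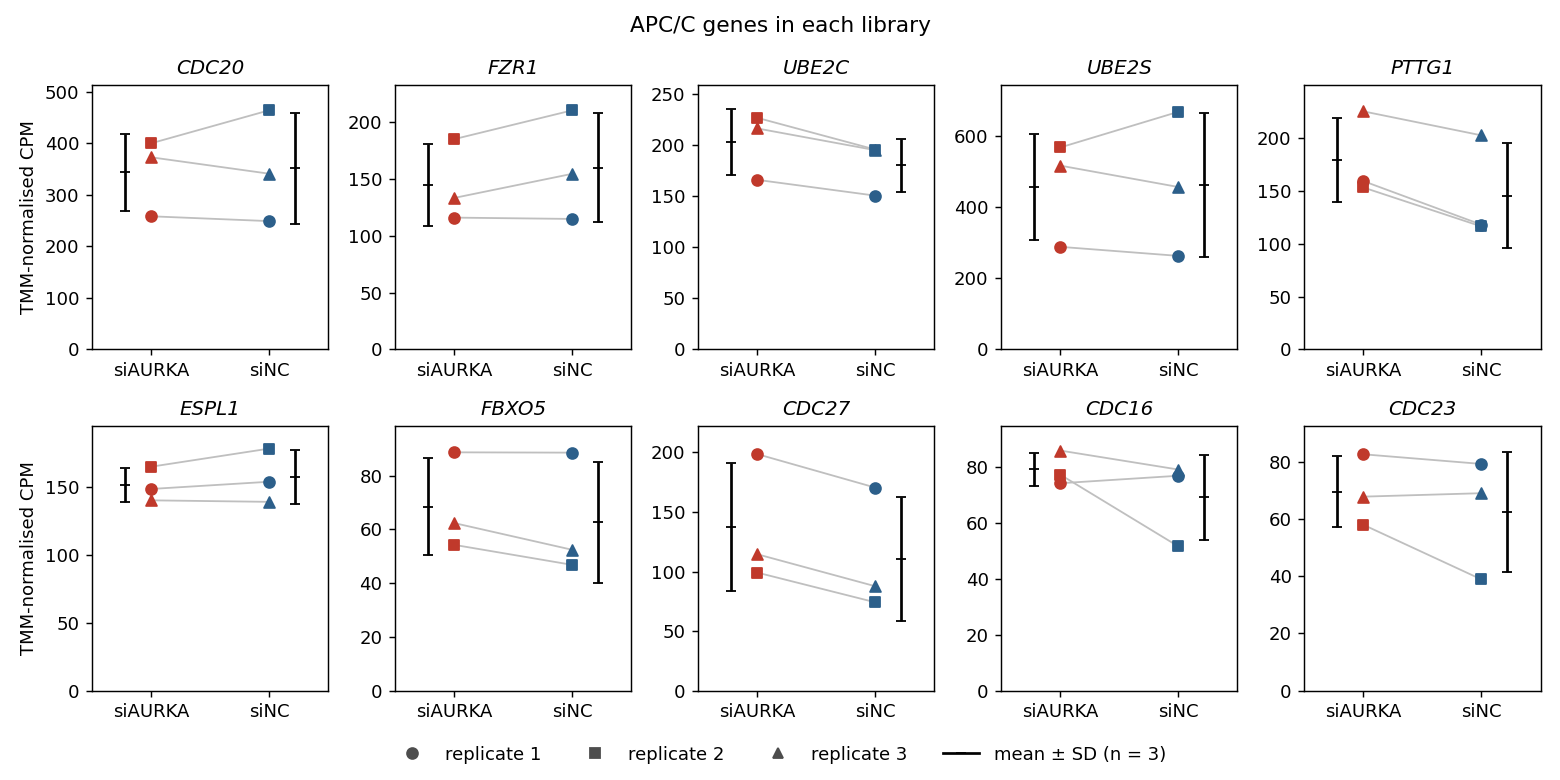
TMM-normalised CPM (y axes, from 0) of the 10 APC/C genes in siAURKA (left) and siNC (right) libraries, with grey lines joining libraries of the same replicate number and bars for the mean ± SD (n = 3). The groups overlap in every panel, and same-numbered libraries often lie close, as for CDC20 in replicate 1, at 258 CPM in siAURKA and 249 CPM in siNC.

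The coactivators CDC20 and FZR1, which recruit substrates to the complex, differed between the groups by less than the spread between libraries. CDC20 (ENSG00000117399, chromosome 1, 43358955 to 43363203, GRCh38) was at 258, 399.8 and 373 CPM in siAURKA replicates 1, 2 and 3, against 249, 464 and 341 CPM in siNC. The lowest library of each group was replicate 1 and the highest replicate 2, and the ranges overlapped almost entirely. CDC20 averaged 343 ± 75.1 CPM in siAURKA and 351 ± 108 CPM in siNC (SD, n = 3 each), a log2 fold change of -0.03 (SE 0.33) that edgeR did not call (adjusted p = 0.9999). FZR1 (ENSG00000105325, chromosome 19, 3506273 to 3538330) was at 116, 185 and 133 CPM in siAURKA, against 115, 210.2 and 154 CPM in siNC. Its within-pair log2 ratios were 0.01, -0.19 and -0.21, giving the lowest fitted log2 fold change of the members, -0.14 (SE 0.34, edgeR adjusted p = 0.9999). Without siNC replicate 2 these values turned, to 0.22 for CDC20 and 0.11 for FZR1, and without siAURKA replicate 1 that of CDC20 turned to 0.13.

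The ubiquitin-conjugating enzymes that serve the complex are UBE2C, which starts ubiquitin chains, and UBE2S, which extends them. UBE2C (ENSG00000175063, chromosome 20, 45812576 to 45816957) was at 166, 226 and 216 CPM in siAURKA, against 150.2, 195 and 195 CPM in siNC. Each siAURKA library lay above its same-numbered siNC library by a similar step, with log2 ratios of 0.14, 0.21 and 0.15, while the lowest siAURKA library stayed below the upper siNC libraries. The fitted log2 fold change was 0.17 (SE 0.27, edgeR adjusted p = 0.9999). UBE2S (ENSG00000108106, chromosome 19, 55399745 to 55407777), the most abundant member in CPM, was at 289, 569 and 518 CPM in siAURKA, against 263, 669 and 457 CPM in siNC. Replicate 1 was the lowest library of both groups, and the spread within each group far exceeded the difference between the group means of 459 ± 149 CPM in siAURKA and 463 ± 203 CPM in siNC (SD, n = 3 each). The fitted log2 fold change of UBE2S was -0.02 (SE 0.42) and turned to 0.35 without siNC replicate 2 and to 0.22 without siAURKA replicate 1.

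Securin was higher in siAURKA in each pair of libraries, with overlapping groups, while separase was higher in 1 of 3 pairs. Securin (PTTG1, ENSG00000164611, chromosome 5, 160421822 to 160428744), the separase inhibitor that the complex destroys at anaphase, was at 159, 153 and 225 CPM in siAURKA, against 118, 116 and 202 CPM in siNC. Replicate 3 was the highest library of both groups, and siAURKA was higher in 3 of 3 pairs, by log2 ratios of 0.43, 0.40 and 0.15. The fitted log2 fold change of PTTG1 was 0.30 (SE 0.34, edgeR adjusted p = 0.9999), or 0.10 without siAURKA replicate 3 and 0.62 without siNC replicate 3. With the replicate block its SE was 0.12 and its unadjusted p 0.0388 by edgeR, but the adjusted p was 0.58. Separase (ESPL1, ENSG00000135476, chromosome 12, 53268299 to 53293643), the protease that cuts cohesin, was at 148, 165 and 140.0 CPM in siAURKA, against 154, 178 and 139 CPM in siNC. Replicate 2 was the highest library of both groups, and the log2 fold change was -0.05 (SE 0.26, edgeR adjusted p = 0.9999), or 0.05 without siNC replicate 2.

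The PTTG1 to ESPL1 ratio of CPM was 1.07, 0.929 and 1.61 in siAURKA replicates 1, 2 and 3, against 0.767, 0.652 and 1.46 in siNC. It was higher in siAURKA in 3 of 3 pairs, by 0.48, 0.51 and 0.14 on the log2 scale, while the groups overlapped, with replicate 3 high in both. The mean log2 difference was 0.38, with an exact permutation p of 0.4, two-sided (0.9 adjusted over the 4 ratios computed). The permutation test, here and for the other ratios, did not use the pairs. The other ratios, chosen by role, had log2 differences of 0.12 for CDC20 over FZR1, 0.14 for UBE2C over UBE2S and 0.28 for FBXO5 over FZR1. Each of these was higher in siAURKA in 2 of 3 pairs, with exact permutation p-values of 0.5, 0.9 and 0.8 before adjustment. These ratios were chosen after the values were seen.

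The inhibitor FBXO5 (EMI1), which holds APC/C inactive during S and G2 phase, was the lowest of the non-core members in CPM. FBXO5 (ENSG00000112029, chromosome 6, 152970519 to 152983579) was at 88.7, 54.3 and 62.4 CPM in siAURKA, against 88.6, 46.8 and 52.4 CPM in siNC. Replicate 1 was the highest library of both groups, and the difference in that pair was near 0 (log2 ratio 0.0019). The fitted log2 fold change was 0.13 (SE 0.36, edgeR adjusted p = 0.9999), and it turned to -0.04 without siNC replicate 2 and to -0.11 without siAURKA replicate 1. An antisense gene overlaps 4.10% of the exonic bases of FBXO5, and without strand information its reads cannot be told apart there.

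The core subunits CDC27, CDC16 and CDC23 carry tetratricopeptide repeats and form the arc on which the coactivators dock. CDC27 (ENSG00000004897, chromosome 17, 47117703 to 47189422) was at 199, 99.2 and 115 CPM in siAURKA, against 170.5, 74.2 and 87.7 CPM in siNC. Within each pair siAURKA was the higher, by log2 ratios of 0.22, 0.42 and 0.39, yet siNC replicate 1 exceeded siAURKA replicates 2 and 3. CDC27 had the highest log2 fold change of the members, 0.31 (SE 0.43, edgeR adjusted p = 0.9999), but -0.06 without siAURKA replicate 1. With a same-numbered pair left out it ran from 0.29 to 0.39. With the replicate block the SE was 0.11, with an unadjusted p of 0.0302 and an adjusted p of 0.569 by edgeR. PTTG1 and CDC27 were thus the 2 members of 10 below an unadjusted p of 0.05 in the blocked fit, where 8.48% of all genes were. Both were on the higher side, where 3.93% of all genes were. CDC16 (ENSG00000130177, chromosome 13, 114234887 to 114272723) was at 74.1, 77.1 and 85.7 CPM in siAURKA, against 76.7, 51.5 and 78.9 CPM in siNC. Only siNC replicate 2 lay apart, and without it the log2 fold change of CDC16 was 0.02, against 0.19 with it. CDC23 (ENSG00000094880, chromosome 5, 138187648 to 138213343) was at 82.6, 57.9 and 67.8 CPM in siAURKA, against 79.2, 38.8 and 69.0 CPM in siNC. Again siNC replicate 2 was the lowest library, and the log2 fold change of 0.16 turned to -0.09 without it.

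**Figure D2:**
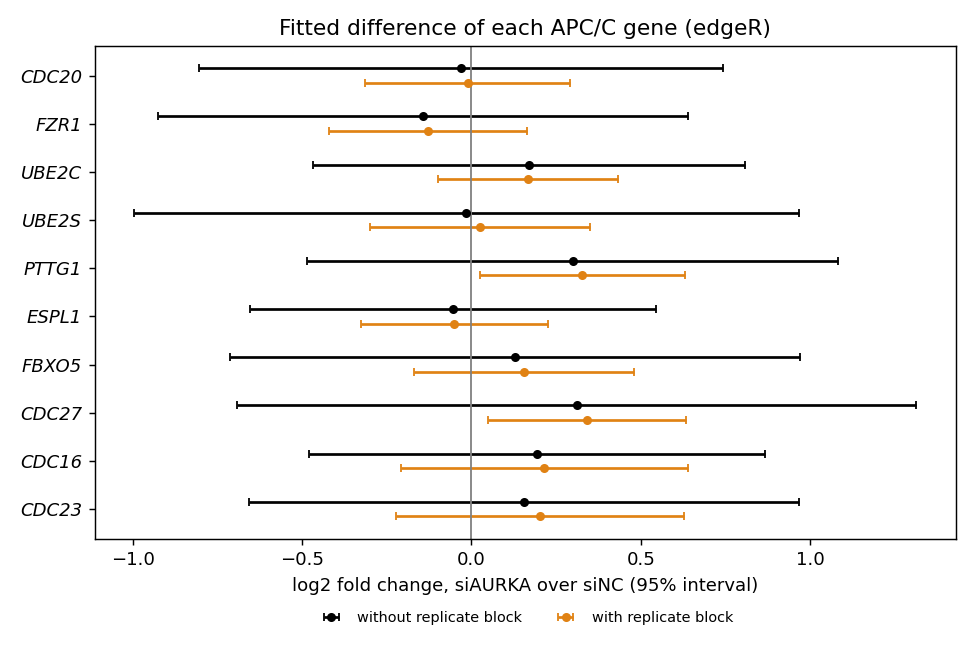
Fitted log2 fold change (x axis, siAURKA over siNC) of each member with its 95% interval from edgeR, without (black) and with (orange) the replicate number as a block. All 10 intervals without the block include 0, while with the block those of PTTG1 (0.02 to 0.63) and CDC27 (0.05 to 0.63) do not, neither being called after adjustment.

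The intervals set what size of difference these libraries leave possible. Without the block, the 95% interval of the fold change ran from 0.573 to 1.67 for CDC20, from 0.501 to 1.95 for UBE2S and from 0.619 to 2.49 for CDC27, the widest upward. The narrowest was that of ESPL1, from 0.636 to 1.46. With the block the intervals tightened to 0.805 to 1.22 for CDC20, 0.747 to 1.12 for FZR1 and 0.866 to 1.56 for CDC16, and those of the other 7 members lay between 0.798 and 1.55. The lowest member value was 814 units, for CDC23 in siNC replicate 2. Reads could also be shared with near-identical copies of the members, of which 12 identifiers were listed, 5 of them at 0 in every library, and the highest reached 6.54 CPM (UBE2SP1), 0.977% of UBE2S in the same library.

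Levels per exonic length had the same leading members in both groups. In CPM per kilobase of merged exonic length, CDC20 was at 169 ± 36.9 in siAURKA and 172 ± 52.96 in siNC (SD, n = 3 each, as below). UBE2S was at 164 ± 53.5 CPM per kilobase in siAURKA and 166 ± 72.8 in siNC, and UBE2C at 158 ± 25.2 in siAURKA and 140.0 ± 20.1 in siNC. These 3 did not differ from each other beyond their spread. PTTG1 followed, at 88.9 ± 19.8 CPM per kilobase in siAURKA and 72.3 ± 24.5 in siNC, below the 3 leading members in each of the 6 libraries. FZR1 was at 24.9 ± 6.19 CPM per kilobase in siAURKA and 27.5 ± 8.27 in siNC. The other 5, CDC27, CDC16, FBXO5, ESPL1 and CDC23, averaged between 15.03 and 20.1 CPM per kilobase in siAURKA and between 13.5 and 17.6 in siNC, with neighbours in that order closer than their spread. FZR1 lay above CDC23 and ESPL1 in each of the 6 libraries, while CDC27 and FBXO5 exceeded it in replicate 1 of both groups.

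Most of the variation of the members followed the replicate number. Of each member's sum of squares in log2 CPM over the 6 libraries, the replicate number held 46.3% (CDC16) to 96.5% (UBE2S), with a median of 90.0% against 74.1% over all tested genes. The group (siAURKA or siNC) held 0.0273% (CDC20) to 21.2% (CDC16) of it, with a median of 6.26% against 7.07% over all genes. For AURKA, by comparison, the group held 93.7% and the replicate number 2.33%. The replicate number held more than the group for all 10 members, as it did for 87.6% of all genes. Having more levels than the group, the replicate number can hold a larger share even where neither has an effect.

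**Figure D3:**
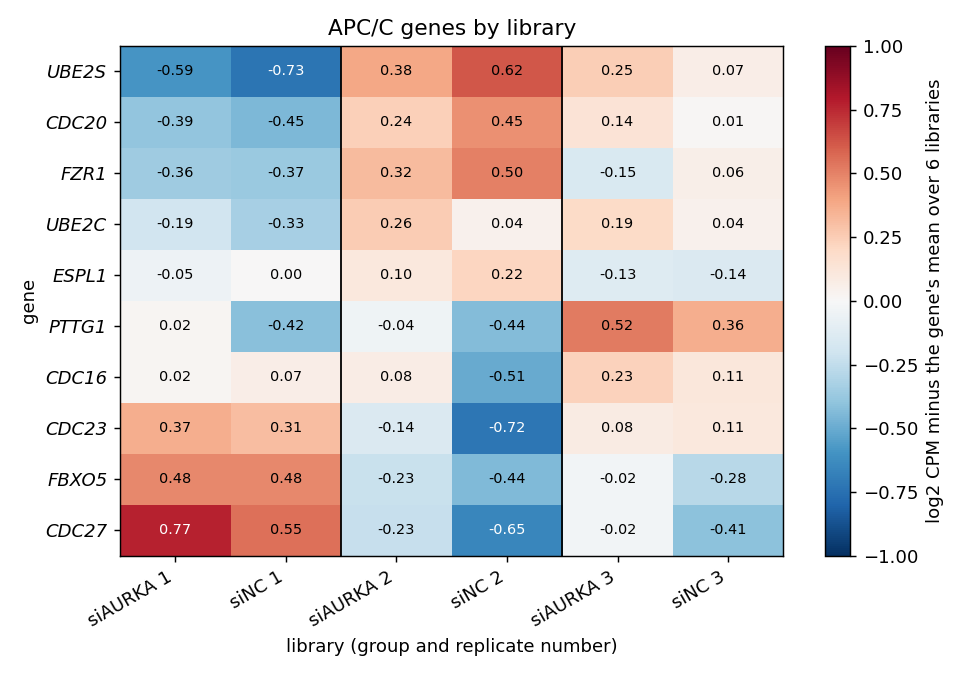
Log2 CPM of each member minus its mean over the 6 libraries (colour and printed value), with libraries ordered by replicate number and siAURKA left of siNC in each pair. UBE2S, CDC20, FZR1 and UBE2C are low in both libraries numbered 1, whereas CDC27, FBXO5 and CDC23 are high there.

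The members fell into opposite patterns across replicate numbers. Log2 CPM in the libraries numbered 1 minus that in the other 4 was -0.99 for UBE2S, -0.63 for CDC20, -0.54 for FZR1, -0.40 for UBE2C and -0.30 for PTTG1. It was 0.99 for CDC27, 0.72 for FBXO5 and 0.51 for CDC23, and close to 0 for CDC16 (0.07) and ESPL1 (-0.03). Measured as the root mean square difference of centred log2 CPM over the 6 libraries, the closest pair was CDC20 with FZR1 (0.131), then FBXO5 with CDC27 (0.158) and CDC20 with UBE2S (0.175), and the farthest was UBE2S with CDC27 (0.982). GC content moved with this pattern. The longest transcripts of CDC27 and FBXO5 had GC contents of 36.6% and 34.2%, and those of CDC20, FZR1 and UBE2S 57.9%, 64.0% and 55.7%. Across the 10 members Spearman's rho between GC content and the difference was -0.84, and across 18717 tested genes it was -0.51, as descriptions over genes that share the same libraries. With all genes in 5 equal bins of GC content, the median difference was 0.71 in the lowest bin and -0.70 in the highest. Its part in the members' pattern was not tested. Exonic length moved with it too, with a median of -0.34 in the shortest of 5 equal bins of genes and 0.68 in the longest. Spearman's rho between exonic length and the difference was 0.47 across the 10 members and 0.34 across the 18717 genes. ESPL1, the longest member at 8.89 kilobases and with a GC content of 57.0%, stood at -0.03.

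**Figure D4:**
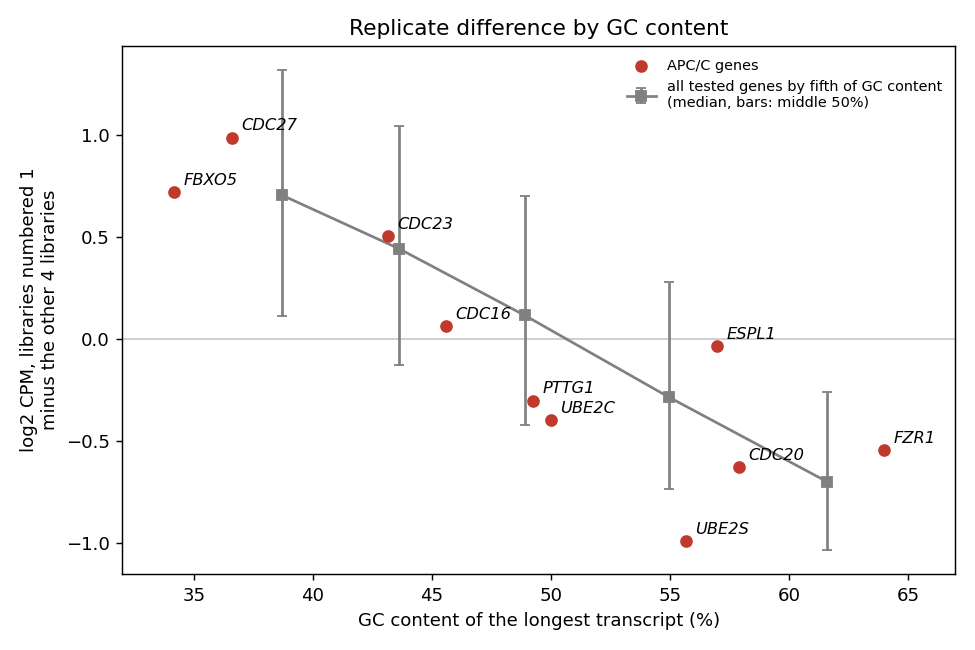
Log2 CPM of the libraries numbered 1 minus the other 4 libraries (y axis) against GC content of the longest transcript (x axis, %), for the 10 members (red) and for all tested genes in 5 bins of GC content (grey, median with the middle 50%). CDC27 and FBXO5, at 36.6% and 34.2% GC, stand at 0.99 and 0.72, and UBE2S, at 55.7% GC, at -0.99.

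Genes with the most similar pattern were sought among 14749 tested genes outside the list, by the smallest root mean square difference of centred log2 CPM over the 6 libraries. For CDC20 these were AC098934.1 (0.0449), POLR3D (0.0450), PACS2 (0.0524), TOR2A (0.0542) and FBXO17 (0.0551), against a median of 0.504 over the genes compared. For the mean profile of the 10 members they were DSN1 (0.0320), AP1S2 (0.0386), KCMF1 (0.0431), YWHAQ (0.0436) and C1GALT1C1 (0.0446), against a median of 0.455. That mean profile was at 0.0072, 0.074 and 0.11 in siAURKA replicates 1, 2 and 3, against -0.088, -0.092 and -0.0073 in siNC. Its range was narrow, with members above and below their own means in the same libraries. Its groups did not overlap, as those of 3.33% of all tested genes did not in the higher direction. The difference in the mean profile was not tested. DSN1, a kinetochore protein, was at 92.0, 98.7 and 101 CPM in siAURKA, against 86.4, 82.5 and 91.9 CPM in siNC.

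Other genes of the pathway had list medians on the same side of 0 as the members, with few calls. Of 11 further core subunits, 7 had a log2 fold change above 0 and 4 below, against 48.5% of all genes above 0, with a median of 0.16, and no tool called any. In same-numbered pairs 7 of the 11 were higher in siAURKA in 3 of 3, against 17.9% of all genes, and 2 were lower in 3 of 3, against 17.6%. In the blocked edgeR fit 0 of the 11 had an unadjusted p below 0.05, against 8.48% of all genes. ANAPC1, the largest scaffold subunit, was at 96.7 ± 43.6 CPM in siAURKA and 84.3 ± 54.0 CPM in siNC (SD, n = 3 each), higher in 3 of 3 pairs. ANAPC5 was at 178 ± 25.1 CPM in siAURKA and 191 ± 28.95 CPM in siNC, lower in 3 of 3 pairs, and ANAPC7 at 106 ± 30.8 CPM in siAURKA and 90.8 ± 33.8 CPM in siNC, higher in 3 of 3 pairs. None of the 3 passed the test. ANAPC1 went to a log2 fold change of -0.25 without siAURKA replicate 1, ANAPC7 to -0.05 without siAURKA replicate 3, and ANAPC5 to 0.03 without siNC replicate 3.

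The next list held 8 spindle checkpoint genes acting on CDC20, most but not all of whose products restrain it until chromosomes are attached. By edgeR 6 of the 8 were on the higher side in siAURKA and 2 on the lower, the median log2 fold change being 0.16. The 2 were MAD2L1BP (-0.0081, SE 0.36) and TRIP13 (-0.0103, SE 0.24), both close to 0. In 3 of 3 pairs 4 of the 8 were higher in siAURKA and 0 lower, against 17.9% and 17.6% of all genes. In the blocked edgeR fit 2 of the 8 had an unadjusted p below 0.05, against 8.48% of all genes. BUB1B, which encodes the checkpoint inhibitor BUBR1, was at 178, 59.3 and 118 CPM in siAURKA, against 129.8, 31.2 and 75.2 CPM in siNC. It was higher in 3 of 3 pairs although the groups overlapped, and DESeq2 with the replicate block called it as higher (adjusted p = 0.0303). That was the only call in this list by any tool, 1 of 8 against 0.636% of all genes called higher in that fit. Without siAURKA replicate 1 its edgeR log2 fold change was 0.16, and without siNC replicate 1 it was 1.16, against 0.59 with all libraries. The checkpoint kinase BUB1 was at 205 ± 84.9 CPM in siAURKA and 149.7 ± 85.8 CPM in siNC, and BUB3 at 205 ± 56.8 CPM in siAURKA and 169.7 ± 72.0 CPM in siNC. TRIP13, the ATPase that takes the checkpoint complex apart, was at 226 ± 10.4 CPM in siAURKA and 227 ± 5.06 CPM in siNC (SD, n = 3 each).

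Among 22 other substrates, 17 had a log2 fold change above 0 and 5 below, with a median of 0.23. Their median log2 ratios in pairs 1, 2 and 3 were 0.12, 0.49 and 0.17, so pair 2, which holds siNC replicate 2, gave the highest. In 3 of 3 pairs 8 of the 22 were higher in siAURKA and 1 lower, against 17.9% and 17.6% of all genes. In the blocked edgeR fit 6 of the 22 had an unadjusted p below 0.05, against 8.48% of all genes. NUSAP1, a spindle-associated protein, was at 237, 217 and 271 CPM in siAURKA, against 148, 95.9 and 199 CPM in siNC. All siAURKA libraries lay above all siNC libraries, for 1 gene of 22 here and 3.33% of all genes. DESeq2 with the replicate block called NUSAP1 as higher (adjusted p = 0.0303), 1 call of 22 here against 0.636% of all genes, and no other tool called any gene of the list. Of its exonic bases, 62.2% lie in exons of other genes, so its reads may be shared with them. The mitotic cyclin CCNB1 was at 431 ± 73.1 CPM in siAURKA and 310.3 ± 87.9 CPM in siNC, and TPX2, the spindle activator of Aurora A, at 678 ± 123 CPM in siAURKA and 506 ± 142 CPM in siNC. TK1, a nucleotide salvage enzyme, was at 350.0 ± 119.9 CPM in siAURKA and 389 ± 193 CPM in siNC (SD, n = 3 each). These 3 were not called by any tool.

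Of 11 genes of cohesin and its regulators, 10 had a log2 fold change above 0 and 1 below, against 48.5% of all genes above 0, with a median of 0.19 and no call by any tool. Their median log2 ratios in pairs 1, 2 and 3 were 0.01, 0.54 and 0.21. In 3 of 3 pairs 6 of the 11 were higher in siAURKA and 0 lower, against 17.9% and 17.6% of all genes. In the blocked edgeR fit 0 of the 11 had an unadjusted p below 0.05, against 8.48% of all genes. RAD21, the cohesin subunit that separase cuts, was at 351, 157 and 148 CPM in siAURKA, against 349, 115 and 126 CPM in siNC. PDS5A was at 266 ± 119.8 CPM in siAURKA and 224 ± 184 CPM in siNC. SMC1A was at 358, 29.7 and 129.5 CPM in siAURKA, against 306, 99.9 and 113 CPM in siNC, with siAURKA replicate 2 far below the rest. Without siAURKA replicate 1 the log2 fold changes were -0.38 for RAD21, -0.20 for PDS5A and -1.13 for SMC1A, and without siNC replicate 1 they were 0.87 for RAD21, 1.13 for PDS5A and 0.71 for SMC1A, against 0.15, 0.25 and -0.0025 with all libraries. Of 8 further E2 enzymes, deubiquitinases and F-box genes, 6 had a log2 fold change above 0 and 2 below, with a median of 0.19 and no call by any tool. In 3 of 3 pairs 3 of the 8 were higher in siAURKA and 1 lower, and 0 had an unadjusted p below 0.05 in the blocked edgeR fit. CCNF (cyclin F, an F-box protein) was at 119, 117 and 116 CPM in siAURKA, against 105, 102 and 92.7 CPM in siNC, the 1 gene of the 8 whose groups did not overlap, as 3.33% of all genes did in the higher direction. UBE2E1, an E2 enzyme, was at 87.5 ± 15.5 CPM in siAURKA and 81.2 ± 0.850 CPM in siNC, and the deubiquitinase OTUD7B (Cezanne) at 43.6 ± 15.4 CPM in siAURKA and 44.8 ± 13.5 CPM in siNC (SD, n = 3 each).

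**Figure D5:**
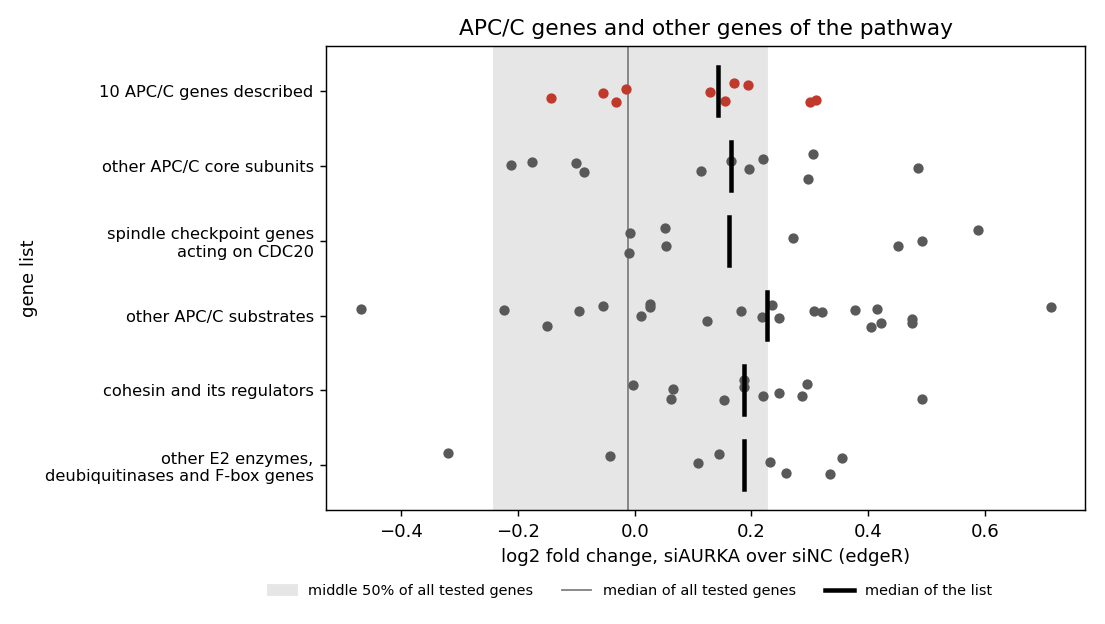
Log2 fold change (x axis, siAURKA over siNC, edgeR) of each tested gene in the 10 members (red) and in 5 further pathway lists (dark grey), with list medians as black bars and the middle 50% of all tested genes shaded. List medians lie between 0.14 and 0.23, against -0.01 over all genes. The shaded range describes single genes, so it does not show how far list medians vary.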

How the data were processed

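The authors deposited 1 table of whole numbers per Ensembl gene, read here as estimated counts without scaling, for 3 siAURKA and 3 siNC libraries. The submitters' processing notes name HISAT2, an aligner, and the build GRCh38. For the counting program, strand setting and gene annotation, the entry is not given in the sources used here. Of the values from 1 to 24, multiples of 4 made up 30.3% to 34.0%, by library, where equal frequencies would give 25%, so totals may overstate depth. If each fragment counted as 4 units, 3 fragments would correspond to 0.216 CPM in the deepest library and 0.572 CPM in the shallowest. That is a floor for counting error only. Most values from 1 to 24 were not multiples of 4, so the factor cannot hold for every value. Values were whole, so rounding altered nothing.

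Of the identifiers, 57980 had an entry in GENCODE release 29 and 263 had none. Low genes were removed with filterByExpr, and CPM were scaled by TMM. Groups were compared mainly by edgeR's quasi-likelihood test, without covariates, Benjamini-Hochberg adjusted over 18775 genes at 0.05, and intervals used its SE and degrees of freedom. Log2 CPM used a prior count of 2. The test scripts were tested on simulated data. DESeq2, limma-voom, RLE scaling, no filter, values divided by 4, left-out libraries and pairs, and the replicate number as a block were alternatives. Same-numbered libraries deviated together from their group means (correlations of 0.647, 0.477 and 0.302 for numbers 1, 2 and 3, all above 0.1), so equal numbers were treated as pairs. That pairing comes from the data and not from the labels. The main test did not use the pairs, and the fits with the replicate number as a block did. Members and lists were chosen with earlier results of these data known. Named genes were the members, AURKA, the 3 most abundant tested genes of each pathway list, any list gene called by any tool, and the 5 genes nearest in pattern. MAD2L1BP was also named, as a checkpoint gene on the lower side. Tests ran in DESeq2 1.42.0, limma 3.58.1 and edgeR 4.0.16 under R 4.3.3, and tables and plots in numpy 2.4.6, pandas 2.3.3 and matplotlib 3.10.9 under Python 3.11.15.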

Additional observations from a re-analysis of the deposited data

How the results depend on the processing

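The count of members called was 0 under all alternatives run. Their median log2 fold change kept its sign, at 0.07 to 0.15 with 1 library left out and 0.10 to 0.19 with a pair left out. Over all genes edgeR called 0, DESeq2 called 17, DESeq2 with the replicate block 246, and leaving out 1 library gave 0 to 2. edgeR with the replicate block also called 0, with 1592 genes below an unadjusted p of 0.05 against 237 without the block. AURKA passed the threshold with DESeq2 (log2 fold change -1.29) and with DESeq2 and the replicate block (-1.28), and ran from -1.41 to -1.17 with 1 library left out. Among the checkpoint genes and among the other substrates, DESeq2 with the replicate block called 1 gene each (BUB1B and NUSAP1), and the block changed no other call among the lists. The cause of these gains was not tested.

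Signs of small member differences turned in some settings. CDC20 was at 0.0023 without the filter and 0.10 without both libraries numbered 2. UBE2S was at 0.026 with edgeR and the replicate block, 0.011 with DESeq2 and the replicate block, 0.030 with limma-voom, 0.018 without the filter and 0.17 without both libraries numbered 2. With 1 library left out the log2 fold change ran from -0.22 to 0.22 for CDC20, -0.36 to 0.11 for FZR1, -0.29 to 0.35 for UBE2S, -0.13 to 0.050 for ESPL1, -0.11 to 0.47 for FBXO5, -0.064 to 0.77 for CDC27 and -0.090 to 0.37 for CDC23, while it stayed above 0 for UBE2C (0.059 to 0.29), PTTG1 (0.096 to 0.62) and CDC16 (0.024 to 0.31). With a pair left out CDC20 ran from -0.11 to 0.10 and UBE2S from -0.12 to 0.17. The other members kept their signs, FZR1 from -0.20 to -0.11, ESPL1 from -0.079 to -0.016 and UBE2C from 0.15 to 0.19. PTTG1 ran from 0.24 to 0.42, FBXO5 from 0.082 to 0.23, CDC27 from 0.29 to 0.39, CDC16 from 0.042 to 0.31 and CDC23 from 0.026 to 0.25. Leaving out 1 library, unlike a pair, leaves the replicate numbers unequal between the groups. In an alternative chosen after seeing the data, the members higher in both remaining pairs were 5, 6 and 5 without pair 1, 2 and 3, against 28.4%, 27.5% and 24.5% of all genes.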
